A study of Mus musculus with 12 samples.

Results

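The 45 genes described here encode the ligands, antagonists, receptors, Smads and targets of BMP and TGF-beta signalling, followed in the cochlear epithelium of mouse embryos at embryonic day 16.5. They were chosen by name, from a list of pathway symbols, with earlier results of these data known. All 45 were found among the 22869 gene symbols of the deposited table. By role they comprised 14 ligands, 2 genes of ligand processing and storage, 7 antagonists, 9 receptors, 8 Smads and 5 targets. The embryos were 3 Esrp1 knockouts (Esrp1-/-), set against 3 wild-type control embryos (Esrp1+/+), all of the C57BL/6 strain and of the same age. Esrp1 encodes an RNA-binding protein that sets splicing patterns in epithelia, and the comparison asks what differs in the developing cochlea without it. Each embryo was 1 replicate: its 2 cochleae were pooled, the epithelium was dissected by hand after collagenase had loosened the mesenchyme, and polyA RNA was sequenced in 2 libraries, 12 libraries in all. The p-values therefore rest on the spread between individual embryos. Whole epithelium was sequenced, so that each value is a mean over the sensory floor, roof and lateral wall of the duct. Markers of mesenchyme, cartilage and other tissues also had reads, as given below, so the values include such tissue too. In such bulk RNA, fewer cells of a type and less RNA per cell cannot be told apart.

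Ligands of this superfamily are secreted dimers that draw together type I and type II receptor kinases. The type I receptor then phosphorylates a Smad: Smad1, Smad5 and Smad9 in the BMP branch, Smad2 and Smad3 in the TGF-beta and activin branch. These join Smad4 and enter the nucleus, where the Id genes are classical targets of the BMP branch. Smad6 and Smad7 are inhibitory Smads that the pathway itself induces, and secreted antagonists such as noggin and chordin hold ligands away from their receptors. In the mouse cochlear duct, BMP signalling is known for patterning the duct across its width, with Bmp4 expressed on the outer, non-neural side of the prosensory domain.

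Between 12547301 and 18473139 reads per knockout embryo and between 16411205 and 21568516 reads per control embryo fell on genes. Esrp1 had 33.5 ± 5.98 CPM (reads scaled to a common library size, with TMM) in knockouts and 139 ± 50.8 CPM in controls (SD, n = 3 each). edgeR's quasi-likelihood test gave it a log2 fold change of -2.05 ± 0.26 (SE) and an adjusted p of 0.0354. The embryos also differed in ways the groups do not define. Knockout 1 and all 3 controls expressed Xist (1097 CPM in knockout 1 and 1312 to 1807 CPM in controls). Knockouts 2 and 3 had at most 0.27 CPM of Xist, and 94.9 and 81.8 CPM of the Y-linked gene Ddx3y. With both embryos numbered 1 left out, this difference and the Esrp1 genotype divide the embryos alike and cannot be told apart. Both embryos numbered 1 had high Fos, with 64.5 CPM in knockout 1 and 152.6 CPM in control 1, against 1.0 to 7.27 CPM in the other embryos. Markers of the duct roof summed to 8523 to 10876 CPM in knockouts and 3160 to 6845 CPM in controls, with 1 of 6 markers past an adjusted p of 0.05 in edgeR, higher. Strial marginal cell markers summed to 241 to 325 CPM in knockouts and 412 to 591 CPM in controls, with 3 of 6 past the threshold, lower. Hair cell markers (5 genes) summed to 223.2 to 249.1 CPM in knockouts and 274.8 to 303.4 CPM in controls, with 0 past the threshold. Periotic mesenchyme markers summed to 3457 to 3760 CPM in knockouts and 2552 to 3769 CPM in controls, with 0 of 12 past the threshold, and the 8 epithelial markers to 1292 to 1636 CPM in knockouts and 962.4 to 1871 CPM in controls. Cartilage markers summed to 2728 to 3766 CPM in knockouts and 2999 to 4379 CPM in controls. Neuron and glia markers summed to 779.2 to 888.7 CPM in knockouts and 575 to 973.5 CPM in controls. For erythroid markers the sums were 316.8 to 855.6 CPM in knockouts and 562.8 to 1103 CPM in controls. No gene of these marker lists was without reads, and their part in the results below was not tested.

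No BMP or TGF-beta gene passed an adjusted p of 0.05 in edgeR's quasi-likelihood test, in which 0.149% of all 14717 genes tested did. The smallest adjusted p was that of Bmp4 (0.106). Of the 45 genes, 44 had enough reads to be tested, and only Grem1, a secreted BMP antagonist, did not (5, 5 and 1 reads in knockouts, against 2, 13 and 5 reads in controls). With an unadjusted p under 0.05, 8 of the 44 were lower in the knockout (Bmp4, Inhba, Smad9, Smad6, Smad7, Id1, Id2 and Id4) and 2 were higher (Bmp3 and Chrd). These are 18.2% and 4.55%, beside 1.9% lower and 2.87% higher over all genes tested. DESeq2 gave an adjusted p under 0.05 to 3 of the genes, all lower (Bmp4, Smad6 and Smad7), where it did so for 0.382% of genes lower and 0.657% higher. In the authors' deposited table the same 3 genes, with 1 transcript row each, had an FDR under 0.05 and lower values in the knockout, as had 0.346% of all 28644 rows.

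Counted without a model, 8 genes had every knockout embryo below every control embryo, the same 8 as above, where 4.44% of all genes tested did. Chrd and Acvr1 had every knockout embryo above every control, where 5.39% of all genes did. Over the 44 genes, 28 log2 fold changes were negative and 16 positive, and the median was -0.08, beside 0.0 over all genes tested. In the plot of fold changes by role, the negative values comprise 8 ligands, 4 antagonists, 6 receptors, 6 Smads and 4 targets, which are the 4 Id genes. The ligands ran from -1.35 to 1.52, the Smads from -0.87 to 0.02, the targets from -0.58 to 0.19 and the 9 receptors from -0.18 to 0.23.

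**Figure D1:**
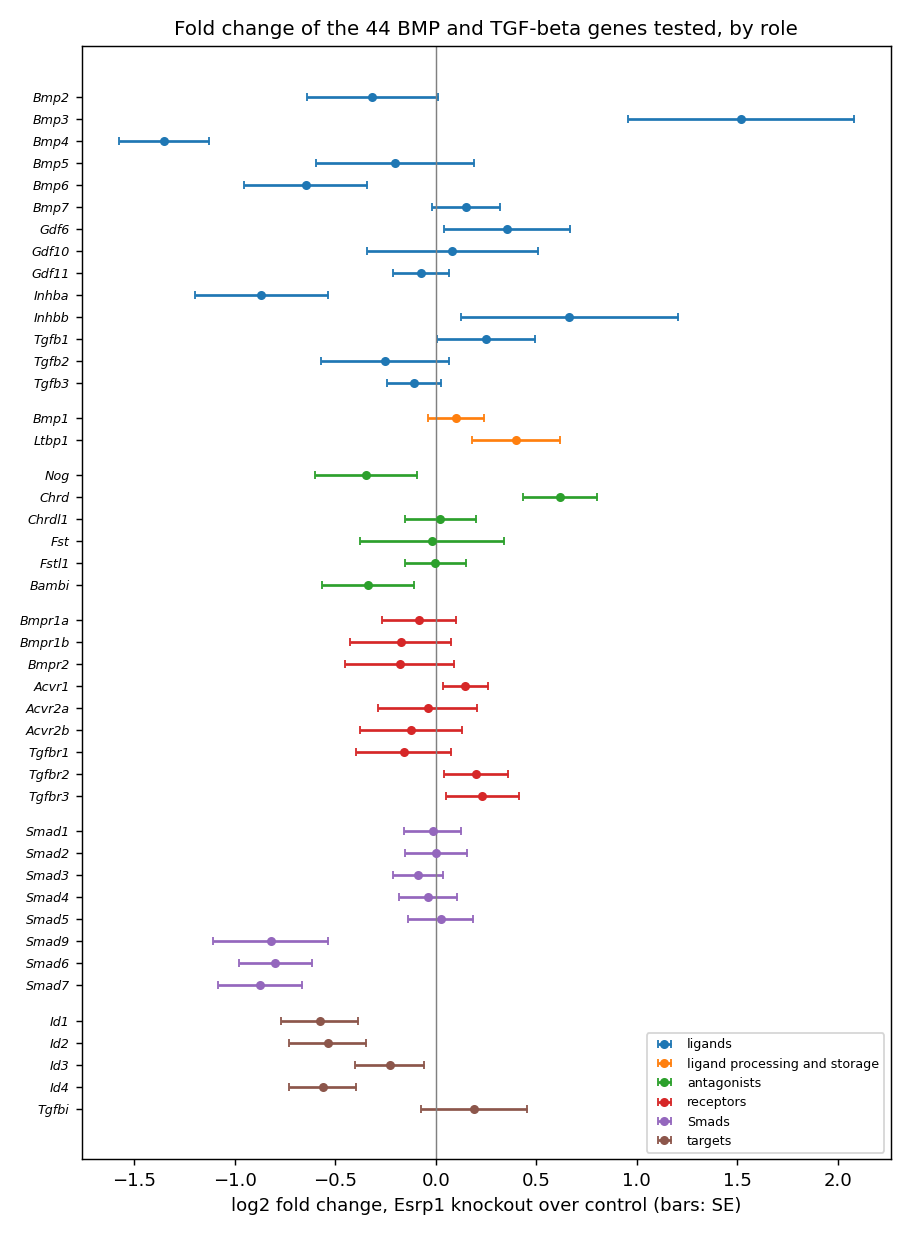
Log2 fold change (Esrp1 knockout over control, x axis) of the 44 BMP and TGF-beta genes tested, grouped by role down the page. Points are edgeR estimates and bars their standard errors; Bmp4 (-1.35), Inhba, Smad9, Smad6 and Smad7 lie farthest to the left, and Bmp3 (1.52) and Inhbb (0.66) farthest to the right.

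Promoter sequences are shown for 5 of the 8 genes with lower values, because Smad6 and the Id genes are known direct targets of BMP-activated Smads and because Bmp4 and Smad9 carry that signal. RefSeq promoters (GRCm38.p6, 250 bases before to 50 bases after a listed start of the gene) were at hand for 30 of the 45 genes. They were searched for GGCGCC, a GC-rich element that BMP-branch Smads bind, and for GTCTAGAC, the palindromic Smad3 and Smad4 element. Both read the same on either strand and neither overlaps the other. Capitals mark these letters in the sequences, which are given 5′ to 3′ on the gene's strand for Smad6 (chr9:64022010-64022309, minus strand), Id2 (chr12:25096043-25096342, minus strand), Id4 (chr13:48260866-48261165, plus strand), Smad9 (chr3:54755332-54755631, plus strand) and Bmp4 (chr14:46390620-46390919, minus strand).
Smad6: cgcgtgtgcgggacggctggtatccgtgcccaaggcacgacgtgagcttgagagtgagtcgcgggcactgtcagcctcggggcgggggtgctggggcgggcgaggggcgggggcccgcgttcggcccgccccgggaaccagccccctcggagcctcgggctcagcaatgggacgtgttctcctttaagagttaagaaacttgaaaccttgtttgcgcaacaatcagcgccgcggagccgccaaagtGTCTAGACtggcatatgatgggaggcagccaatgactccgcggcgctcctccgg
Id2: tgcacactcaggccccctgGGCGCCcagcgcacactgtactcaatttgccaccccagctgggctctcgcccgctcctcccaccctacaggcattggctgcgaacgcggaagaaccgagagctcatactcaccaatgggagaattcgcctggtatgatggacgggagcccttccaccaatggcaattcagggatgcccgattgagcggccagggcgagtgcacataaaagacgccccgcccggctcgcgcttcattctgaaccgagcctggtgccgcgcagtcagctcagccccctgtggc
Id4: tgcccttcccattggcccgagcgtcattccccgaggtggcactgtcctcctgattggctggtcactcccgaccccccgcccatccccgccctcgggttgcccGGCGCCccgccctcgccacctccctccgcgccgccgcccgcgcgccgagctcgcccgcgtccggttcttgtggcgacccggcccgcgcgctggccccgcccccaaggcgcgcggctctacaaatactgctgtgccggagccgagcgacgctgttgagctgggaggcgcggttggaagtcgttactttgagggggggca
Smad9: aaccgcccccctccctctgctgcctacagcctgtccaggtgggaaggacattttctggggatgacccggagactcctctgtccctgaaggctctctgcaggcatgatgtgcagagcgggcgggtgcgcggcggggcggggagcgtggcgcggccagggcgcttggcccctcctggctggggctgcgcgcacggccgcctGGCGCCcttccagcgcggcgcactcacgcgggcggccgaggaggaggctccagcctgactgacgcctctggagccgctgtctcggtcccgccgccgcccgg
Bmp4: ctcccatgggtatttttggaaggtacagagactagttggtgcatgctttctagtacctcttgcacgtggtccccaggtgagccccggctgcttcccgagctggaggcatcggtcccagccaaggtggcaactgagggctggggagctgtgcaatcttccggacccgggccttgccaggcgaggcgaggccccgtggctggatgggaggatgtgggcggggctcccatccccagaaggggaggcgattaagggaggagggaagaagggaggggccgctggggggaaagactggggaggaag

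Smad6 was the only one of the 30 genes with GTCTAGAC, which is held by 0.248% of the 27025 genes with a promoter in the table. It begins 4 bases before the listed start of Smad6. GGCGCC was found in 11 of the 30 genes, Bmpr1a, Bmpr2, Chrd, Gdf10, Grem1, Id2, Id4, Smad5, Smad9, Tgfbi and Tgfbr1, and in 13.4% of all genes with a promoter, or 24.6% of the 10298 of them that were tested. GGCGCC begins 231 bases before the listed start in Id2, 148 in Id4 and 51 in Smad9. For Smad6 and Smad9 the listed start lies inside the gene's span, which ends at 64022085 for Smad6 (minus strand) and begins at 54755455 for Smad9. The marked elements of these genes lie inside that span too. Neither element is in the Bmp4 window, nor in those of Inhba and Id3, which are not shown. No promoter was at hand for Id1 and Smad7. Of the 11 genes with GGCGCC, Smad9, Id2 and Id4 had every knockout below every control and Chrd every knockout above, while groups overlapped in the others, such as Bmpr1a, Smad5 and Tgfbr1 with log2 fold changes of -0.08, 0.02 and -0.16.

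Among the ligands with separate groups, Bmp4 (chromosome 14, 46383525 to 46390669, mm10) had the largest difference. It had 25.5, 42.3 and 48.3 CPM in knockouts 1, 2 and 3, against 111.3, 89.1 and 96.4 CPM in controls 1, 2 and 3. The highest knockout was well below the lowest control, and the knockout mean was 39.1% of the control mean. This is a log2 fold change of -1.35 ± 0.22 (SE), with an adjusted p of 0.106 in edgeR and 5.58e-06 in DESeq2. In the authors' deposited table the log2 fold change was -1.38 with an FDR of 3.56e-07. Leaving out any 1 embryo, or both embryos numbered 1, gave edgeR values of -1.55 to -1.05. Without both, edgeR's adjusted p was 0.0041, but genotype and the Xist difference cannot be told apart there. Among the 4 embryos that expressed Xist, knockout 1 was the lowest by far, and it was the only knockout of that kind. With Xist as a covariate, edgeR gave Bmp4 a log2 fold change of -1.99. The genotype term of that fit rests mainly on knockout 1, since the other knockouts had almost no Xist.

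Inhba, which encodes the subunit of activin A, had 3.05, 3.27 and 2.93 CPM in knockouts, against 4.26, 4.31 and 8.35 CPM in controls. The knockouts were nearly equal and all lower, but control 3 stood well above the other 2 controls. It had a log2 fold change of -0.87 ± 0.33 (SE, adjusted p = 0.883, edgeR), and of -0.47 without control 3. Bmp3, a family member known to oppose other BMPs, pointed the other way, with 14.4, 4.4 and 4.67 CPM in knockouts, against 1.69, 1.9 and 4.52 CPM in controls. Only knockout 1 was clearly above the controls, since knockout 2 was below control 3. The log2 fold change of Bmp3 was 1.52 ± 0.56 (SE, adjusted p = 0.848, edgeR) and 0.73 without knockout 1.

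Tgfb2, the ligand with the most transcript per length, varied more within the groups than between them. It had 248.4, 482.8 and 643.1 CPM in knockouts, against 666.4, 423.7 and 545.4 CPM in controls, with a log2 fold change of -0.25 ± 0.32 (SE, adjusted p = 0.994, edgeR). Its sign depended on knockout 1, without which the value was 0.04. Bmp7, the next ligand by level, had a log2 fold change of 0.15. The remaining 9 ligands (Bmp2, Bmp5, Bmp6, Gdf6, Gdf10, Gdf11, Inhbb, Tgfb1 and Tgfb3) had log2 fold changes of -0.65 (Bmp6) to 0.66 (Inhbb), with overlapping groups in each. Bmp5 and Gdf10, a close relative of Bmp3, shared an order of the controls, lowest in control 1 and highest in control 3 (17.1 to 60.3 CPM for Bmp5 and 11.4 to 44.5 CPM for Gdf10).

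**Figure D2:**
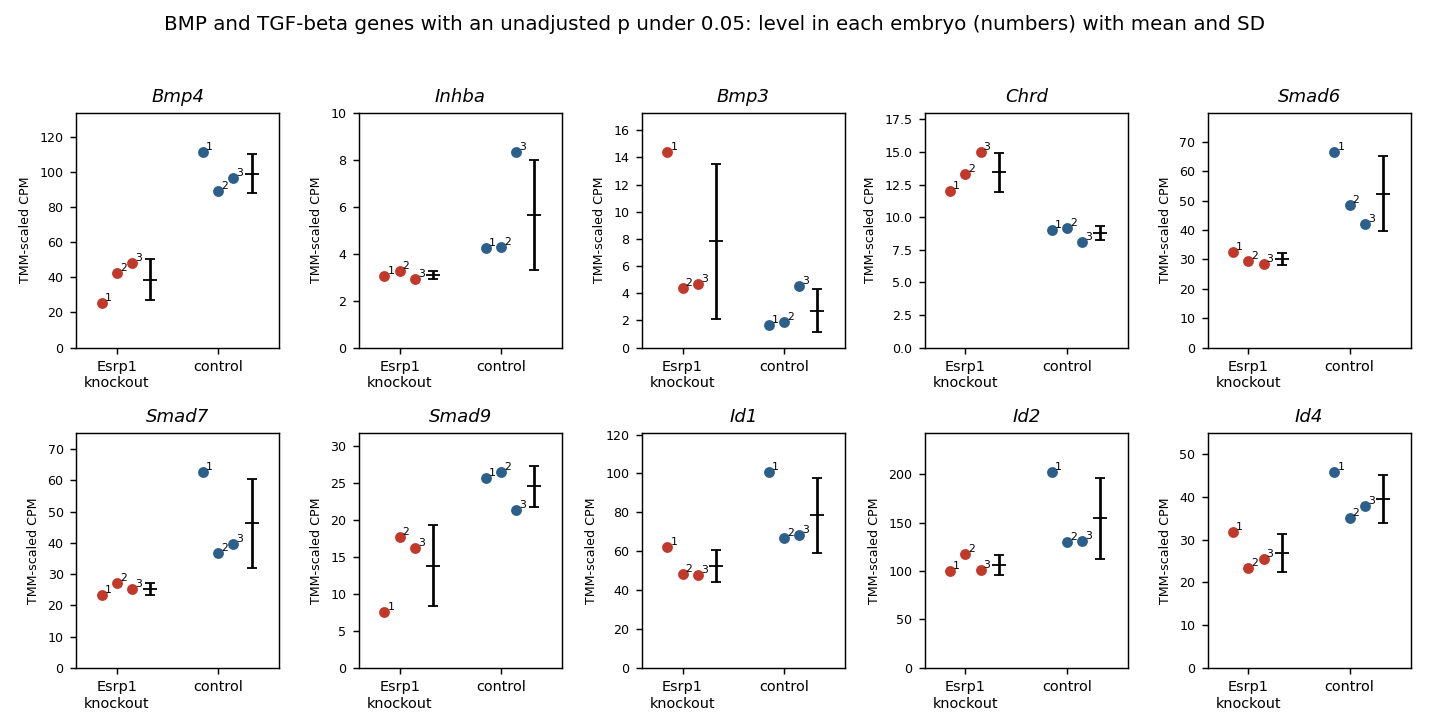
Level in each embryo (TMM-scaled CPM, y axis from 0) of the 10 BMP and TGF-beta genes with an unadjusted p under 0.05, Esrp1 knockouts in red on the left and controls in blue on the right, numbered by embryo; bars give mean and SD (n = 3). In 8 panels all knockouts lie below all controls and in the Chrd panel all lie above; the Bmp3 panel overlaps, and control 1 is the highest point for Bmp4, Smad6, Smad7, Id1, Id2 and Id4.

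Both inhibitory Smads were lower in every knockout than in every control. Smad6 (chromosome 9, 63953076 to 64022085), which mainly damps BMP signals, had 32.5, 29.6 and 28.3 CPM in knockouts, against 66.6, 48.5 and 42.2 CPM in controls. Smad7, which damps both branches, had 23.2, 27.1 and 25.3 CPM in knockouts, against 62.6, 36.7 and 39.5 CPM in controls. The knockouts lay close together in both genes, and control 1 was the highest of the controls. The knockout means were 57.5% and 54.5% of the control means for Smad6 and Smad7. Log2 fold changes were -0.80 ± 0.18 for Smad6 (SE, adjusted p = 0.251 in edgeR and 0.0153 in DESeq2) and -0.87 ± 0.21 for Smad7 (SE, adjusted p = 0.287 in edgeR and 0.0206 in DESeq2). Without control 1 they were -0.59 and -0.60, with edgeR's adjusted p at 0.232 for each. Control 1 is also the embryo with the highest immediate early genes (7 genes summed to 177 to 459.7 CPM in knockouts, and to 1093 CPM in control 1 and 197.2 and 219.4 CPM in the other controls); their part in these values was not tested.

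Of the 6 Smads that carry the signal, Smad9 alone stood apart. It had 7.62, 17.7 and 16.2 CPM in knockouts, against 25.7, 26.5 and 21.4 CPM in controls, with a log2 fold change of -0.82 ± 0.29 (SE, adjusted p = 0.770, edgeR). All knockouts were below all controls, and knockout 1 was far below the other 2 knockouts. Leaving knockout 1 out gave -0.54. Smad1 and Smad5, which share its place in the BMP branch, had log2 fold changes of -0.02 and 0.02, and Smad2 and Smad3 of the TGF-beta branch 0.0 and -0.09. Smad4, the partner of them all, had 127.1, 162.2 and 173.7 CPM in knockouts, against 160.1, 158.6 and 157.1 CPM in controls. Its controls were almost equal, knockout 1 lay below them and the other knockouts above, at a log2 fold change of -0.04 ± 0.14 (SE, adjusted p = 0.994, edgeR). Per length, Smad9 was the least abundant of the 8 Smads, with 1.16 ± 0.42 FPKM in knockouts and 2.04 ± 0.25 FPKM in controls, against 17.1 ± 0.94 and 16.6 ± 3.83 FPKM for Smad5.

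The Id genes encode inhibitors of basic helix-loop-helix transcription factors, and 3 of the 4 were lower in every knockout than in every control. Id1 (chromosome 2, 152736251 to 152737410) had 62.1, 48.2 and 47.5 CPM in knockouts, against 100.7, 66.8 and 68.1 CPM in controls. Id2 had 100.2, 117.6 and 100.8 CPM in knockouts, against 202.1, 129.8 and 130.6 CPM in controls. In both, control 1 was far above the other controls, and the nearest knockout and control were close: 62.1 and 66.8 CPM for Id1, and 117.6 and 129.8 CPM for Id2. Id4 had 31.8, 23.3 and 25.3 CPM in knockouts, against 45.8, 35.1 and 37.8 CPM in controls. Id3, the most abundant of the 4 per length, had 182.7, 128.0 and 119.7 CPM in knockouts, against 165.1, 177.2 and 162.4 CPM in controls. There knockouts 2 and 3 were below all controls and knockout 1 was above them.

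Log2 fold changes were -0.58 ± 0.19 for Id1, -0.54 ± 0.19 for Id2, -0.56 ± 0.17 for Id4 and -0.23 ± 0.17 for Id3 (SE), and edgeR's adjusted p was 0.710, 0.793, 0.549 and 0.994 in that order. Without control 1, Id1 and Id2 were at -0.36 and -0.30. Without both embryos numbered 1, on 2 embryos a group, edgeR gave Id1 -0.50 with an adjusted p of 0.0489. Id4 was then at -0.59 with 0.0569, Id3 at -0.46 with 0.0676 and Id2 at -0.26 with 0.340. Genotype and the Xist difference cannot be told apart in that fit. With Xist as a covariate, where the genotype term rests mainly on knockout 1, edgeR gave Id1 -0.31, Id4 -0.29 and Id2 -0.62. Id3 had the other sign there, at 0.14. Summed over the 4 genes, the knockouts had 376.8, 317.1 and 293.4 CPM and the controls 513.7, 408.9 and 398.9 CPM. The sum was thus lower in every knockout, with control 1 the highest and knockout 1 the highest of its group. Tgfbi, a matrix protein gene induced by TGF-beta, had a log2 fold change of 0.19 and overlapping groups, with 257.6 to 356.2 CPM in knockouts and 155.9 to 329.3 CPM in controls.

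**Figure D3:**
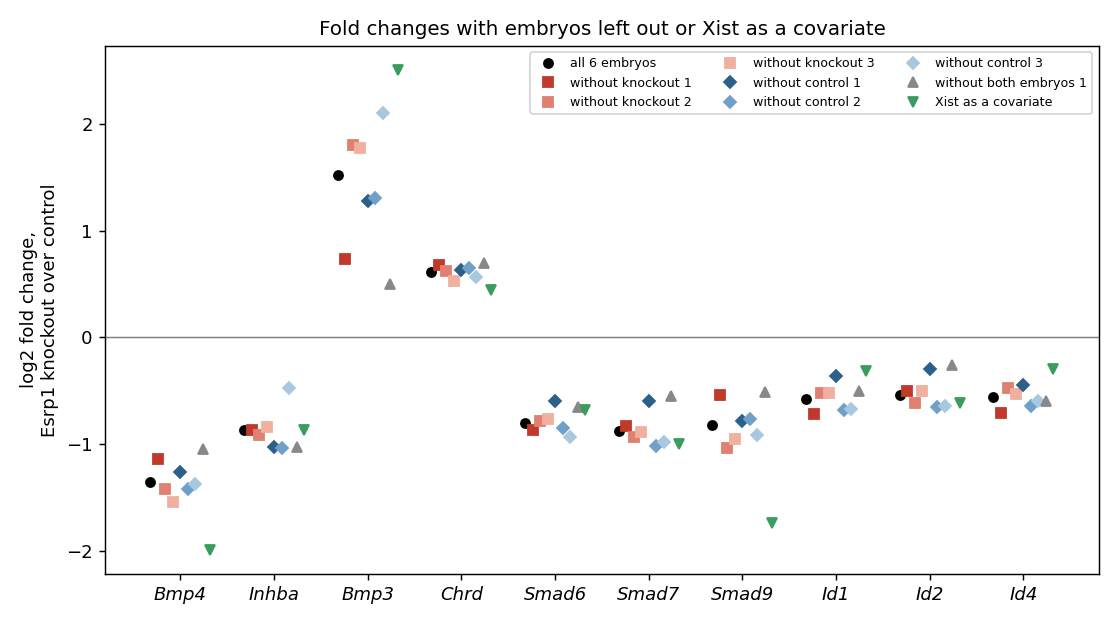
Log2 fold change (Esrp1 knockout over control, y axis) of the 10 BMP and TGF-beta genes with an unadjusted p under 0.05, from edgeR with all 6 embryos (black), with each embryo or both embryos numbered 1 left out, and with Xist as a covariate. No point crosses 0. Bmp4 stays between -1.99 and -1.05, while Bmp3 spreads from 0.50 to 2.51 and Smad9 from -1.74 to -0.51. The values of -1.99, 2.51 and -1.74 are those with Xist as a covariate, where the genotype term rests mainly on knockout 1.

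Among the antagonists, chordin differed most. Chrd (chromosome 16, 20731425 to 20742384), whose product binds BMP ligands outside the cell, had 12.0, 13.3 and 15.0 CPM in knockouts, against 9.02, 9.16 and 8.13 CPM in controls. Every knockout was above every control, and the knockout mean was 153% of the control mean, with a log2 fold change of 0.62 ± 0.18 (SE, adjusted p = 0.546, edgeR). It stayed between 0.53 and 0.68 with any 1 embryo left out. Noggin (Nog), with 8.47 ± 1.86 CPM in knockouts and 10.8 ± 2.52 CPM in controls (SD, n = 3 each), had a log2 fold change of -0.35 and overlapping groups. Bambi, a decoy receptor that lacks the kinase, was at -0.34, Chrdl1 at 0.02 and the activin-binding Fst at -0.02. Fst spread within the knockouts, with 46.2 CPM in knockout 1, and 118.4 and 137.6 CPM in knockouts 2 and 3. Fstl1, a secreted follistatin-like glycoprotein and the most abundant of the 45 genes per length, had 1356, 1375 and 1619 CPM in knockouts, against 1373, 1374 and 1608 CPM in controls. Its groups were nearly the same, at a log2 fold change of -0.00 ± 0.15 (SE, adjusted p = 1.0, edgeR), which leaves room for a difference of the size of its error.

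The groups overlapped in both members of the list that process or store ligands. Bmp1, a metalloprotease that cleaves chordin and procollagens and is no BMP in spite of its name, had 183.5, 177.0 and 174.1 CPM in knockouts, against 195.3, 154.5 and 149.3 CPM in controls. Ltbp1, which tethers latent TGF-beta to the matrix, had 159.8, 173.5 and 232.2 CPM in knockouts, against 188.2, 114.3 and 126.3 CPM in controls. In both genes control 1 was the highest control and lay among the knockouts or above them. The log2 fold changes were 0.10 ± 0.14 for Bmp1 and 0.40 ± 0.22 for Ltbp1 (SE, adjusted p = 0.994 each, edgeR). That of Ltbp1 was 0.65 without control 1, and 0.74 without both embryos numbered 1 (adjusted p = 0.0516, edgeR).

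In the main fit, the 9 receptors had the narrowest range of any role with more than 2 genes. Bmpr1a, a type I BMP receptor and the receptor with the highest level per length in controls, had 219.8, 327.9 and 352.3 CPM in knockouts, against 302.1, 315.0 and 336.9 CPM in controls, a log2 fold change of -0.08 ± 0.18 (SE, adjusted p = 0.994, edgeR). Knockout 1 was below the controls and knockout 3 above them. Acvr1, another type I receptor, had 46.2, 47.7 and 45.4 CPM in knockouts, against 42.6, 41.1 and 42.1 CPM in controls. Its groups did not overlap, but the gap was small, at a log2 fold change of 0.15 ± 0.11 (SE, adjusted p = 0.994, edgeR). The other 7 receptors (Bmpr1b, Bmpr2, Acvr2a, Acvr2b, Tgfbr1, Tgfbr2 and Tgfbr3) lay between -0.18 and 0.23 with overlapping groups. Over the alternative fits given below, Bmpr2, Acvr2b, Tgfbr1, Bmpr1b and Acvr2a reached -0.96, -0.88, -0.86, -0.83 and -0.81 at the lowest. With embryos left out they went no lower than -0.40. At the highest they were at 0.07 (Bmpr2) to 0.21 (Acvr2a). Tgfbr2 ran from 0.05 to 0.29 and Tgfbr3 from -0.13 to 0.37.

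Knockout 1 was the lowest of the 6 embryos for 20 of the 44 genes (45.5%, beside 28.8% of all genes tested), among them 6 of the 9 receptors and 5 of the 8 Smads. Control 1 was the highest embryo for 14 of the 44 (31.8%, beside 20.3% of all genes tested). A list's level in an embryo was taken as the mean of its genes' log2 CPM, each centred over the 6 embryos. The receptors were at -0.47 in knockout 1, 0.13 and 0.26 in knockouts 2 and 3, and -0.06, 0.01 and 0.13 in the controls. Knockout 1 was also the knockout with the fewest reads, with Xist and with high Fos, and these cannot be told apart in 1 embryo.

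Levels between genes were compared in the deposited FPKM, which are per length. Fstl1 was highest, with 183 ± 9.52 FPKM in knockouts and 180 ± 24.0 FPKM in controls (SD, n = 3 each). Id3 followed with 69.6 ± 21.0 FPKM in knockouts and 79.0 ± 8.48 FPKM in controls. Id2, Tgfb2 and Tgfbi completed the first 5 in both groups, in the reverse order in knockouts, with 34.6 ± 4.05, 39.5 ± 14.9 and 50.3 ± 12.9 FPKM in knockouts and 48.8 ± 9.34, 46.7 ± 7.45 and 43.3 ± 17.6 FPKM in controls, and the ranges of neighbours in that order overlapped in each group. Bmp4, with 7.98 ± 1.99 FPKM in knockouts and 20.2 ± 0.95 FPKM in controls, ranked 21 of 45 in the knockouts and 9 in the controls. Bmp7 had 23.8 ± 2.78 FPKM in knockouts and 21.2 ± 2.08 FPKM in controls, so that the level of Bmp4 was close to that of Bmp7 in the controls and far below it in every knockout. At the other end, Inhbb averaged 0.103 FPKM in knockouts and 0.0649 FPKM in controls, and Grem1 0.0651 and 0.0856 FPKM.

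**Figure D4:**
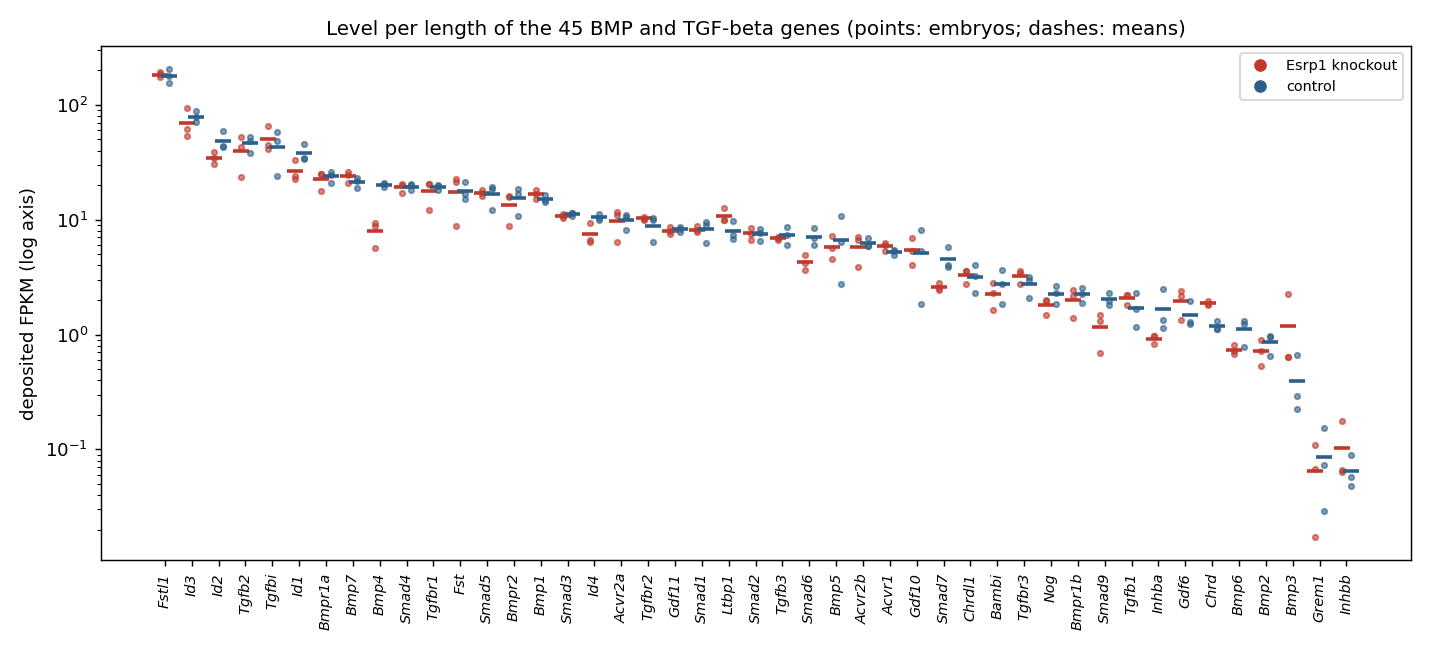
Deposited FPKM (log y axis) of the 45 BMP and TGF-beta genes, ordered from left to right by their mean in controls; points are embryos and dashes group means, Esrp1 knockouts in red left of controls in blue. Fstl1 is highest, with means of 183 and 180 FPKM, and Grem1 and Inhbb are lowest, at 0.0651 and 0.103 FPKM in knockouts and 0.0856 and 0.0649 FPKM in controls. The dashes are visibly apart for genes such as Bmp4, Smad6, Smad7, Inhba and Smad9 (lower in knockouts) and Bmp3 (higher).

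Since ESRP1 acts on splicing, the transcript rows of the genes were compared too. Among the 45 genes, 39 had 1 row and 6 had more than 1, 53 rows in all. Most reads of a gene are counted in each of its rows, so that the reads of a further row, as a percent of the main row, give a net share only. Of the row pairs, 4 differed by at least 60 reads over the 6 embryos. The further row of Chrdl1 had 59.1 ± 1.16% of the main row's reads in knockouts and 63.1 ± 4.52% in controls (two-sided exact permutation test, p = 0.40). In Ltbp1 the further row (NM_206958) lacks 4 exons at the 5′ end of the main row (NM_019919), the first at chromosome 17, 75005568 to 75006361 (mm10). It had 88.4 ± 0.72% of the main row's reads in knockouts and 87.1 ± 1.39% in controls (exact permutation p = 0.30). For Bmp1 and Smad5 the further rows held 98.4 ± 0.43% and 99.7 ± 0.16% in knockouts and 98.5 ± 0.7% and 99.8 ± 0.05% in controls (exact permutation p = 1.00 and 0.40). The smallest p that 3 against 3 embryos can give is 0.10, so that these tests could not pass 0.05.

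Beyond these genes, 72 other genes of the pathway were listed by role, also with earlier results of these data known. The table held 71 of them, and 53 had enough reads to be tested. As in the first list, 0 passed edgeR's adjusted threshold (0.149% of all genes), and 5 were lower and 1 higher at an unadjusted p under 0.05 (9.43% and 1.89%, beside 1.9% and 2.87% of all genes). DESeq2 called 2, Bmper and Pcsk6, both lower, where it called 0.382% of all genes lower and 0.657% higher. Of the 53, 34 log2 fold changes were negative and 19 positive, with a median of -0.06.

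Bmper (chromosome 9, 23223076 to 23485215), a secreted BMP-binding protein that can act for or against BMPs, had 10.7, 18.2 and 16.0 CPM in knockouts, against 44.8, 30.1 and 36.4 CPM in controls. Like Bmp4, it had a highest knockout far below the lowest control, with a log2 fold change of -1.30 ± 0.23 (SE, adjusted p = 0.123 in edgeR and 6.6e-05 in DESeq2). Pcsk6, a proprotein convertase that cleaves ligand precursors, had 58.0, 56.3 and 61.1 CPM in knockouts, against 141.8, 80.6 and 89.4 CPM in controls. Its knockouts were close together and all lower, at -0.83 ± 0.21 (SE, adjusted p = 0.326 in edgeR and 0.0221 in DESeq2), and at -0.54 without control 1. The authors' deposited table gave Bmper and Pcsk6 an FDR of 8.43e-05 and 0.00583, and no other gene of this second list one under 0.05.

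Nbl1, a secreted antagonist of BMPs, had 79.0, 65.5 and 67.2 CPM in knockouts, against 29.0, 45.9 and 57.6 CPM in controls. All knockouts were above all controls, with a log2 fold change of 0.67 ± 0.23 (SE, adjusted p = 0.712, edgeR). It was at 0.45 without control 1. The ligand gene Bmp8b and the targets Msx1 and Ctgf had log2 fold changes of -0.94, -0.66 and -0.42. Of these, Msx1 alone had separate groups (4.72, 4.4 and 4.27 CPM in knockouts, against 9.9, 6.21 and 5.17 CPM in controls), and control 1 was highest in all 3.

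By role, the 10 other antagonists tested thus held 1 gene lower and 1 higher at an unadjusted p under 0.05, the 10 genes of ligand processing and storage 1 lower, the 10 targets 2 lower and the 5 ligands 1 lower. The 7 receptors and 11 intracellular regulators held 0 in either direction. Over all genes tested 1.9% were lower and 2.87% higher, so that 0 in lists of this size is near that share. Of those 11 regulators, which include the Smurf ubiquitin ligases and the corepressors Ski and Skil, 10 had a negative log2 fold change, from -0.35 upwards. Their median was only -0.07, and 7319 of all 14717 genes tested had a negative value.

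**Figure D5:**
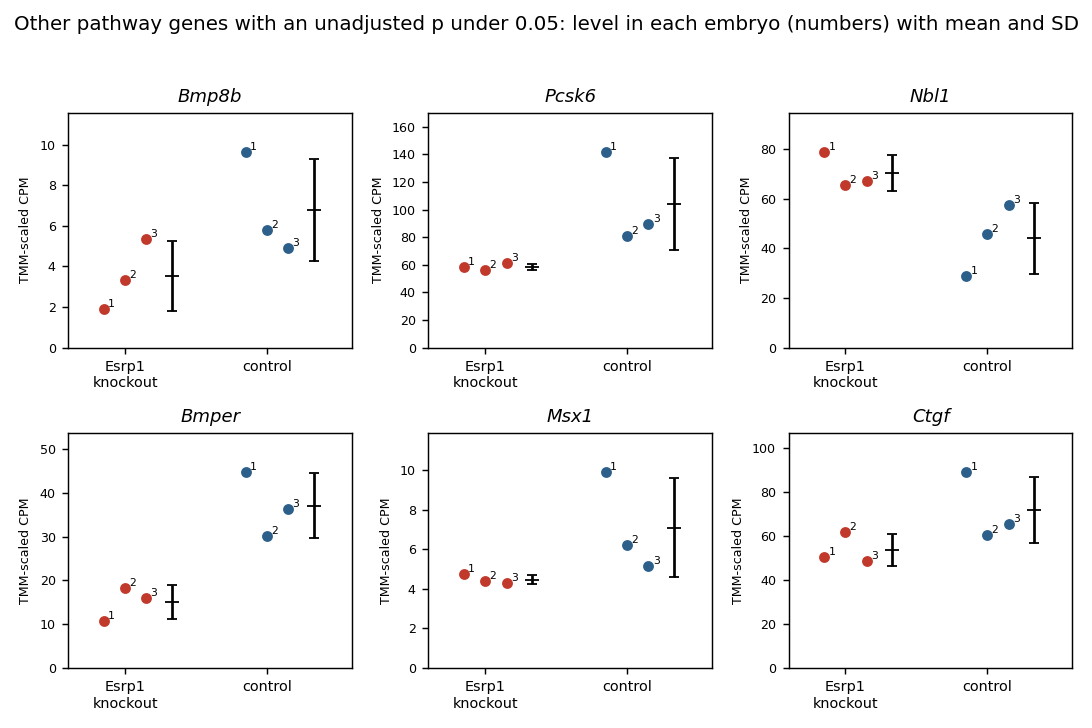
Level in each embryo (TMM-scaled CPM, y axis from 0) of the 6 other pathway genes with an unadjusted p under 0.05, Esrp1 knockouts in red on the left and controls in blue on the right, numbered by embryo; bars give mean and SD (n = 3). Bmper, Pcsk6 and Msx1 have all knockouts below all controls, Nbl1 has all above, and Bmp8b and Ctgf overlap.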

How the data were processed

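Read counts per RefSeq transcript, 1 column per embryo, were deposited by the authors without normalisation, per the file headers. FPKM were deposited beside them, with log2 fold changes with p-values and FDR from the authors' own comparison of transcript rows, per the file headers. The submitters' processing notes name edgeR and mm10; no source used here names the aligner or counter, and 14 columns of the table were not used.

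Of several transcript rows of a gene, that with the highest read total stood for it. Counts of 22869 genes were filtered with filterByExpr (minimum count 10), scaled by TMM and tested with edgeR 4.0.16 (R 4.3.3), quasi-likelihood F test, Benjamini-Hochberg over 14717 genes, threshold 0.05. Standard errors were computed as |log2 fold change| / √F. DESeq2 1.42.0, RLE size factors, no filter, mean rows, embryos left out, the replicate block and Xist as a covariate were alternatives. Shares of transcript rows were compared by exact permutation tests. Depth is given in the report.

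The genes and lists were chosen with earlier results of these data known. Genes given per embryo are those with an unadjusted p under 0.05 in edgeR or an adjusted p under 0.05 in DESeq2 and, in each role, the gene with the highest mean FPKM in controls and that with the smallest p; others named were chosen after their values were seen. Other pathway genes were named at an unadjusted p under 0.05. Positions are RefSeq on GRCm38.p6, the assembly of mm10; exon structures are GENCODE M21. A result on 1 further gene is not reported here, and the gene is left out of the list's counts.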

Additional observations from a re-analysis of the deposited data

How the results depend on the processing

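The count of BMP and TGF-beta genes past the adjusted threshold was 0 with edgeR, 3 with DESeq2, 1 without a filter on low counts (Bmp4) and 4 without both embryos numbered 1 (Bmp4, Smad6 and Id1 lower, Gdf6 higher); it was 0 with RLE size factors, mean rows, any 1 embryo left out, the replicate block or Xist as a covariate. Other pathway genes numbered 0, 2 with DESeq2 (Bmper and Pcsk6, lower) and 3 without both embryos numbered 1 (these and Thbs1, higher). Over all genes the count was 22, 166 with DESeq2, 159 without both embryos numbered 1, 5 with Xist as a covariate and 0 to 30 with 1 embryo left out: 12, 0 and 4 without knockout 1, 2 and 3, and 30, 13 and 0 without control 1, 2 and 3. Over the 44 BMP and TGF-beta genes tested, 24 had the other sign under at least 1 alternative; the 10 with an unadjusted p under 0.05 did not. Of the genes given per embryo, these were Tgfb2, Bmpr1a, Smad4, Fstl1 and Id3, and the cause was not tested. Tgfb2 was at 0.04 without knockout 1, 0.21 without both embryos numbered 1, and -0.58 at the lowest with 1 embryo left out. Bmpr1a was at 0.09, 0.05 and -0.22 likewise, and Smad4 at 0.07, 0.08 and -0.14. Fstl1 was at 0.03, 0.04 and 0.08 without knockout 1, knockout 2 and control 3. Its lowest value with 1 embryo left out was -0.09. With Xist as a covariate, Tgfb2, Bmpr1a, Smad4 and Fstl1 were at -1.18, -0.56, -0.34 and -0.10, and Id3 at 0.14. The genotype term of that fit rests mainly on knockout 1, which was above all controls for Id3. Of 312 values of named genes under the alternatives, 291 kept sign and side of the threshold, 11 passed it and 10 turned. The replicate block called 6 genes over all and 0 of both lists. Log2 CPM, as deviations from the group mean, correlated at 0.08, 0.18 and 0.03 between same-numbered embryos. Of the 6 embryos, not every one correlated best with its own number. With 3 embryos a group, such correlations can neither show nor exclude pairs. The numbers were not taken as pairs in the main fit, since no methods text states a block. The embryo codes in the labels share a stem between same-numbered knockout and control embryos, and the labels do not say what it marks. A minimum of 20 reads took the compared transcript rows to 6 from 4, and ordering FPKM by median kept the same first 5 genes. With 3 embryos a group, Bmp4 at a log2 fold change of -1.35 ± 0.22 (SE) did not pass edgeR's adjusted threshold, while Esrp1 at -2.05 ± 0.26 did. A gene that did not pass is therefore not shown to be unchanged.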

Other observations

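Some genes that the main comparison does not single out differed more once both embryos numbered 1 were left out, on 2 embryos a group. The knockouts left then expressed Ddx3y and the controls left Xist, so genotype and this difference cannot be told apart. The ligand gene Gdf6 was at a log2 fold change of 0.91 (adjusted p = 0.0485, edgeR), with 15.3 ± 4.83 CPM in knockouts and 12.0 ± 4.29 CPM in controls over all embryos (SD, n = 3 each); knockout 1 was its lowest knockout and control 1 its highest control. Fst was at 0.54 (adjusted p = 0.0569, edgeR) and Thbs1, a matrix protein gene known for activating latent TGF-beta, at 0.85 (adjusted p = 0.00928, edgeR). With all 6 embryos the 3 genes were at 0.36, -0.02 and 0.40. Over all alternatives they ran from -0.33 to 0.91 (Gdf6), -1.20 to 0.54 (Fst) and 0.03 to 0.85 (Thbs1).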
